A study of Mus musculus with 2 samples.

Results

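C-type lectin receptors are surface proteins with a shared carbohydrate-recognition fold, and 39 genes taken into this family by their symbols were followed here in Langerhans cells of mice with and without IL-34. Some of the 39 are not such receptors, among them secreted proteins, Clec16a and the pseudogene Clec2j. Members were the genes whose platform symbol begins with Clec and a digit or with Cd209, and Mgl2, with 2 symbols set aside by the rule, and they were 39 of the 19937 genes that a probe set with 1 symbol measured. Langerhans cells, the antigen-presenting cells of the epidermis, were sorted as Langerin and Epcam double positive cells 21 days after the mice had been exposed to ultraviolet light for 30 min. The mice were 8 to 12 weeks old and carried a LacZ insertion either in both copies of Il34 (Il34LacZ/LacZ) or in 1 copy (Il34+/LacZ), so both groups carried the insertion and both were irradiated. IL-34, which keratinocytes secrete in the epidermis, binds the CSF1 receptor that Langerhans cells carry. The labels give 1 array per genotype (n = 1 each) and do not say how many animals a sample came from. The comparison therefore has no replicate error and no test, and each difference below is between 2 arrays.

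Many members of the family bind sugars on microbes, on dying cells or on the cells of the body, and then take up the bound particle or signal. Some pair with the signalling adaptors Fc receptor gamma chain or DAP12, or carry a short activating motif of their own, and activate the kinase Syk. Syk acts through the adaptor Card9, Bcl10 and Malt1 on NF-kB. Others carry an inhibitory motif that recruits phosphatases, and the Clr proteins are ligands for receptors of natural killer cells. Langerin, the product of Cd207 that defines Langerhans cells, is itself a C-type lectin, but its symbol falls outside the rule.

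The arrays were first compared as a whole. The median intensity was 51.9 in Il34LacZ/LacZ and 45.2 in Il34+/LacZ, and the 75th percentile was 116 in Il34LacZ/LacZ and 143 in Il34+/LacZ. Il34, the targeted gene, read 64.4 in Il34LacZ/LacZ and 39.4 in Il34+/LacZ, and because the place of its probes relative to the insertion is not known here it checks nothing. The 8 measured Langerhans cell markers were all far above background, with Cd207 at 1852 in Il34LacZ/LacZ and 3153 in Il34+/LacZ and Epcam at 708 in Il34LacZ/LacZ and 633 in Il34+/LacZ. T cell genes were also read in both samples. The 6 measured T cell markers summed to 6445 in Il34LacZ/LacZ and 7315 in Il34+/LacZ, and the T cell receptor subunit gene Cd3e read 1250 in Il34LacZ/LacZ and 1245 in Il34+/LacZ. All 19937 genes summed to 2.74e+06 in Il34LacZ/LacZ and 3.54e+06 in Il34+/LacZ, the sums to set beside those of marker lists here and below. Values were compared as log2(intensity + 16), Il34LacZ/LacZ minus Il34+/LacZ, and a fold on this scale is smaller than the true one where a gene is dim. Genes entered the counts when their brighter value reached 48.7, the median over all probe sets of both arrays, called the floor. Where the dimmer value lay below the floor the fold was taken against the floor and is a lower bound. Different probe sets of one gene gave log2 differences with an SD of 0.63 (1.55-fold, from 614 genes with more than 1 probe set at or above the floor), which holds probe noise and isoform differences and not the spread between animals.

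The family did not move as a block. Of the 39 members, 24 were at or above the floor on at least 1 array, 17 of them on both arrays and 7 on 1 array only. Clec4b1 and Clec4e were at least 2-fold higher in Il34LacZ/LacZ, and Clec2d and Cd209c at least 2-fold lower. Among the 12843 genes that reached the floor, 1.67% passed 2-fold in the higher direction and 12.1% in the lower. At 1.5-fold, 3 members were higher and 4 lower, against 9.36% and 28.2% of all genes. The probe set SD (1.55-fold) lies near this threshold, so a difference larger than that SD does not by itself set a gene apart. The median difference of the 24 members was -0.17, or -0.11 with values below the floor set to it, and over all 39 members it was 0.08. Over all genes at or above the floor the median was -0.16, or -0.13 with values below the floor set to it, so the middle of the family lay close to that of all genes. The difference of a typical gene depended on its level, and many differences are therefore also given with a lowess trend on the mean level removed. With the trend removed 3 members were at least 2-fold higher and 1 lower, against 3.96% and 5.43% of all genes, and the median of the 24 members was -0.03, against 0.03 for all genes.

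**Figure D1:**
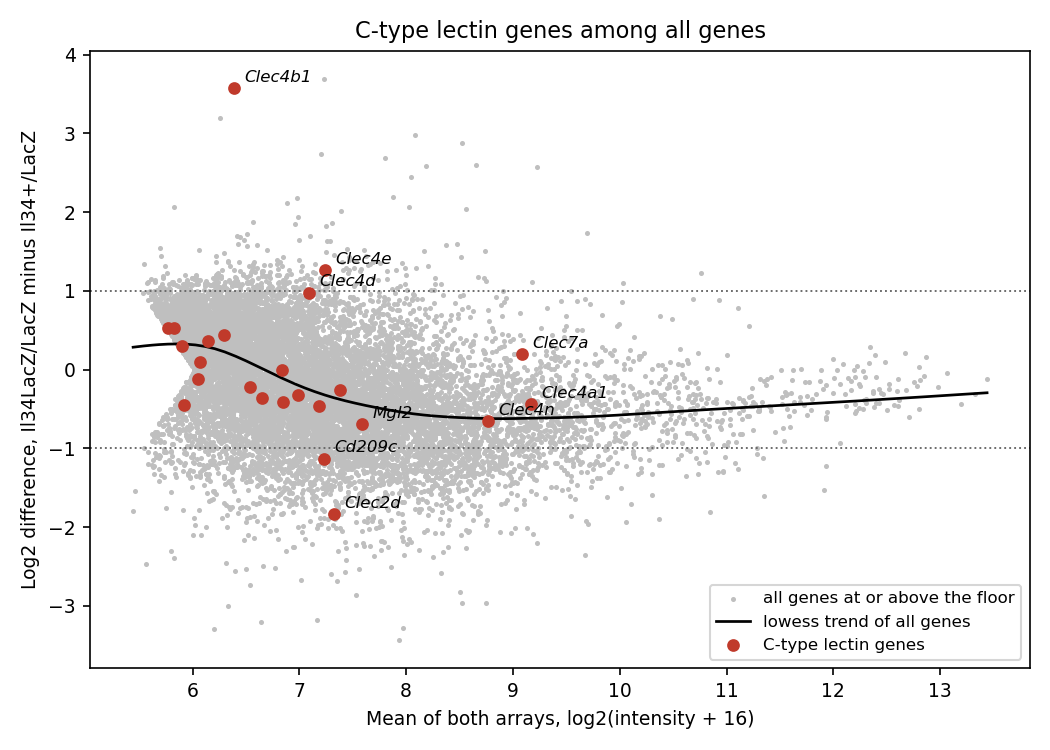
Log2 difference (Il34LacZ/LacZ minus Il34+/LacZ) against the mean log2(intensity + 16) of both arrays for the 12843 genes at or above the floor, with the 24 C-type lectin genes among them in red, the lowess trend as a line and 2-fold as dotted lines. Values are not limited at the floor here, so Clec4b1 stands at 3.58. Most members lie near the trend, with Clec4b1, Clec4e and Clec4d above the cloud's centre and Clec2d and Cd209c below it.

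Receptors that signal through Fc receptor gamma chain or DAP12 gave both of the readings at least 2-fold higher in the family. Of the 6 members in this group, Clec4b1 and Clec4e were at least 2-fold higher, Clec4d was just short of 2-fold, Clec4n and Clec5a read lower by less than 2-fold, and Clec4b2 was below the floor on both arrays. Clec4b1 encodes DCAR, a dendritic cell receptor that pairs with the Fc receptor gamma chain. It read 273 in Il34LacZ/LacZ and 8.25 in Il34+/LacZ. The Il34+/LacZ value lay below the floor and the Il34LacZ/LacZ value well above it, so the gene was at least 4.47-fold higher, or 2.16 on the log2 scale and 1.98 with the trend removed. By this bound it ranked 11 among the 12843 genes in the direction of Il34LacZ/LacZ, and 26 with the trend removed. The trend (0.18 for this gene) was read at the mean of the unlimited values. The trend-removed difference and rank therefore mix limited and unlimited values, and 1.98 is not a strict bound. Clec4b1 was also the member furthest apart. Its closest relative on the array by name, Clec4b2, read 17.6 in Il34LacZ/LacZ and 11.1 in Il34+/LacZ, both below the floor.

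Clec4e and Clec4d encode Mincle and MCL, which sense mycobacterial glycolipids together, and Mincle also senses dying cells. Clec4e read 219 in Il34LacZ/LacZ and 81.7 in Il34+/LacZ, a 2.40-fold higher value (1.27 on the log2 scale, and 1.59 with the trend removed). Clec4d read 175 in Il34LacZ/LacZ and 81.1 in Il34+/LacZ, 1.97-fold higher (0.98, and 1.23 with the trend removed). For both genes the difference was larger than the probe set SD of 0.63. Of the genes within 0.5 of the mean log2 level of Clec4e, 2.72% were at least 2-fold higher, and within the same distance of Clec4d 3.02% were. The call on Clec4e ended with a pseudocount of 64 (0.96) and with the floor at the 75th percentile of all probe sets (0.72).

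Clec4n, which encodes the fungal mannan receptor Dectin-2, read 330 in Il34LacZ/LacZ and 529 in Il34+/LacZ, for a difference of -0.66, or -0.04 with the trend removed. Clec5a encodes MDL-1, a DAP12-coupled receptor of myeloid cells, and read 70.1 in Il34LacZ/LacZ and 83.9 in Il34+/LacZ (-0.21, and -0.30 with the trend removed). Dectin-2 thus followed the typical gene of its level while Mincle and MCL did not. The adaptors themselves were far above the floor in both samples. Fcer1g, the Fc receptor gamma chain, read 2109 in Il34LacZ/LacZ and 2855 in Il34+/LacZ, and Tyrobp, which encodes DAP12, read 2681 in Il34LacZ/LacZ and 3348 in Il34+/LacZ. Their differences were -0.43 and -0.32, or 0.04 and 0.13 with the trend removed.

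**Figure D2:**
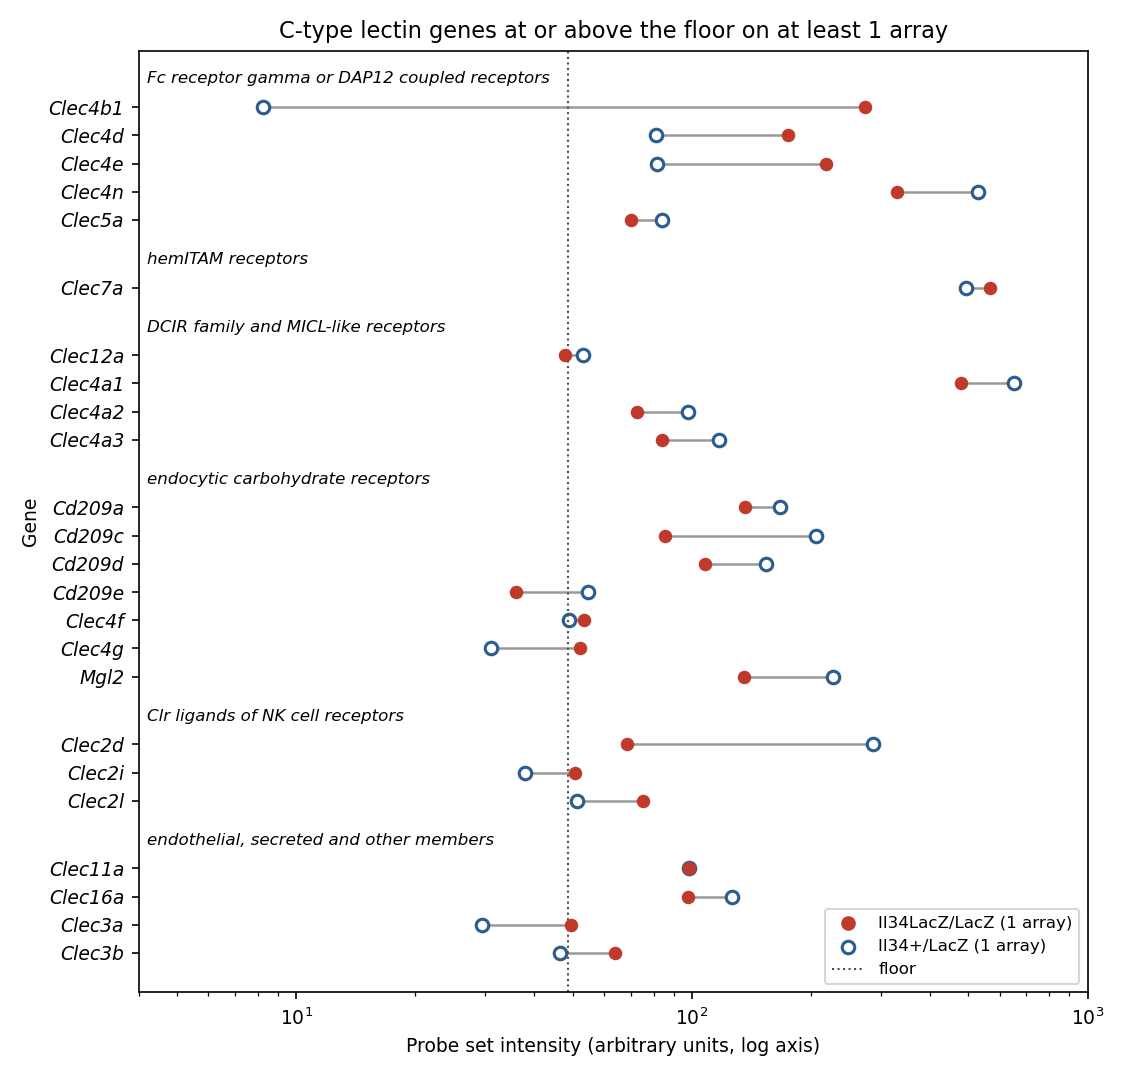
Probe set intensity (log axis) of the 24 C-type lectin genes at or above the floor on at least 1 array, grouped by role, with Il34LacZ/LacZ as filled red points and Il34+/LacZ as open blue points, 1 array each. Positions of different genes are not comparable because their probes differ. The widest pairs are Clec4b1 (273 in Il34LacZ/LacZ and 8.25 in Il34+/LacZ) and Clec2d (68.6 in Il34LacZ/LacZ and 286 in Il34+/LacZ).

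Several other myeloid genes also read higher in Il34LacZ/LacZ. Among 9 macrophage markers that reached the floor 3 passed 2-fold in the higher direction, namely the chemokine gene Pf4 (975 in Il34LacZ/LacZ and 148 in Il34+/LacZ), Ms4a7 (270.0 in Il34LacZ/LacZ and 64.8 in Il34+/LacZ) and the complement gene C1qa (599 in Il34LacZ/LacZ and 256 in Il34+/LacZ). The 12 measured macrophage markers summed to 4596 in Il34LacZ/LacZ and 3002 in Il34+/LacZ, although Adgre1 (F4/80) read 145 in Il34LacZ/LacZ and 281 in Il34+/LacZ, and Mertk, Cd163 and Folr2 were below the floor on both arrays. Among 6 neutrophil markers that reached the floor 2 passed 2-fold in the higher direction, S100a8 at 552 in Il34LacZ/LacZ and 71.9 in Il34+/LacZ and S100a9 at 699 in Il34LacZ/LacZ and 103 in Il34+/LacZ. Only these 2 reached the floor on both arrays, while Camp, Csf3r, Elane and Mpo reached it in Il34LacZ/LacZ alone. Over all genes at or above the floor 1.67% passed 2-fold in the higher direction, the share to set beside the macrophage and neutrophil counts. The 10 neutrophil markers summed to 1614 in Il34LacZ/LacZ and 413 in Il34+/LacZ, with Ly6g, Ltf, Cxcr2 and Retnlg below the floor on both arrays. Monocyte markers had no member 2-fold apart among 5 at or above the floor, and the 8 measured summed to 2728 in Il34LacZ/LacZ and 1799 in Il34+/LacZ, mostly from Ifitm3 at 2231 in Il34LacZ/LacZ and 1194 in Il34+/LacZ, which passed 2-fold with the trend removed (1.41). Plac8 and Ccr2 went the other way, with Plac8 at 91.1 in Il34LacZ/LacZ and 173 in Il34+/LacZ and Ccr2 at 75.4 in Il34LacZ/LacZ and 111 in Il34+/LacZ. Chil3, Vcan and Fcgr4 were below the floor on both arrays. In a sorted bulk sample a different number of cells of a type and a different amount of RNA per cell cannot be told apart, and the part of other myeloid cells in the Clec4b1, Clec4e and Clec4d readings was not tested.

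**Figure D3:**
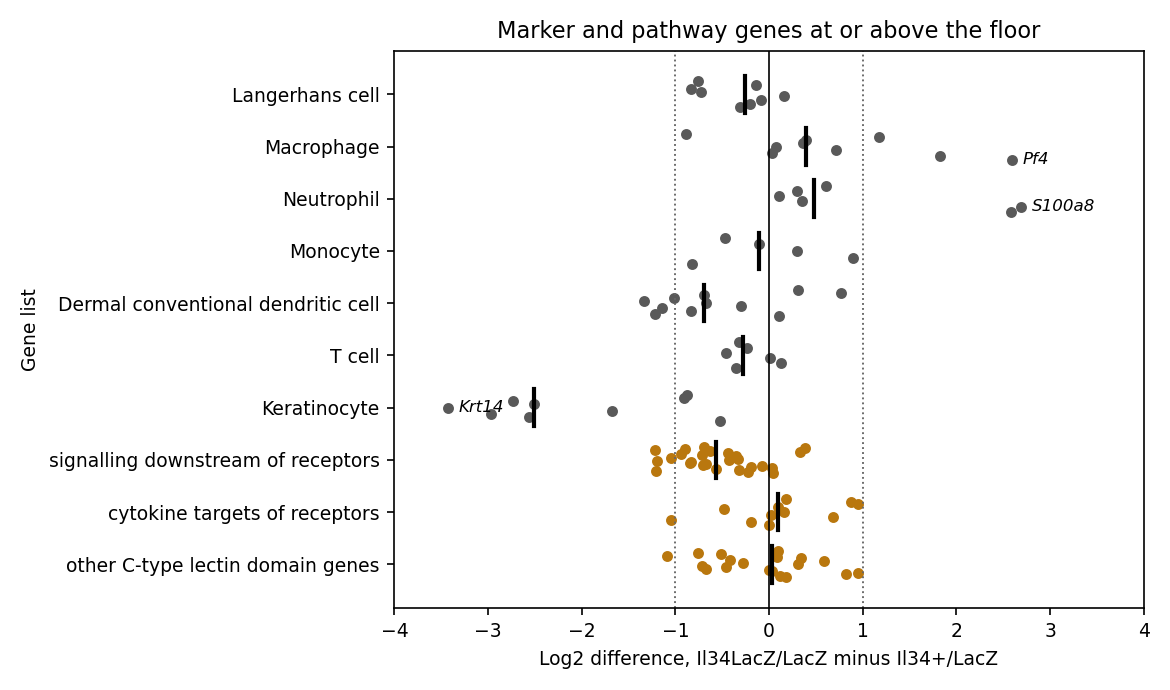
Log2 difference (Il34LacZ/LacZ minus Il34+/LacZ, limited at the floor) of each marker gene (grey) and pathway gene (orange) at or above the floor, 1 row per list, with the list's median as a bar and 2-fold as dotted lines. Pf4 (2.595) and S100a8 (2.69) lead the macrophage and neutrophil lists and Krt14 (-3.43) the keratinocyte list, while the Langerhans cell and T cell markers lie within 2-fold.

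The Clec4 genes lie next to each other on chromosome 6, and neighbours did not read alike. In the RefSeq annotation of assembly GRCm38.p6 the order is Clec4a1, Clec4a3, Clec4a4, Clec4b1, Clec4a2, Clec4b2, 2 pseudogenes that were not measured, Clec4n, Clec4d and Clec4e. All 9 lectin genes of this run were measured and 7 were at or above the floor. Clec4b1 stood between Clec4a4, below the floor with 13.2 in Il34LacZ/LacZ and 7.21 in Il34+/LacZ, and Clec4a2, with 72.8 in Il34LacZ/LacZ and 97.6 in Il34+/LacZ. Clec4d and Clec4e, side by side, both read higher in Il34LacZ/LacZ. Their other neighbour Clec4n read lower there as deposited (-0.66), but lay near 0 with the trend removed (-0.04). In all, 24 of the 39 members lie on chromosome 6 and 9 on chromosome 8.

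**Figure D4:**
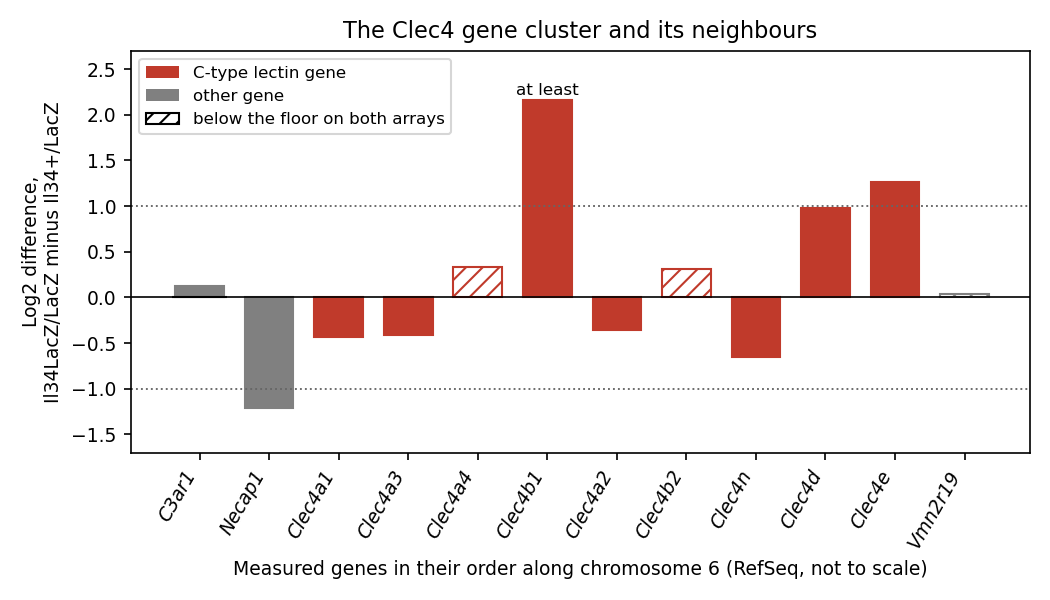
Log2 difference (Il34LacZ/LacZ minus Il34+/LacZ) of the 12 measured genes in and beside the Clec4 cluster, in their order along chromosome 6 and not to scale, with lectin genes in red, other genes in grey and genes below the floor on both arrays hatched. Clec4b1 (at least 2.16), Clec4d (0.98) and Clec4e (1.27) are the tall bars above 0, the other lectin genes of the run lie at or below 0.33, and the longest bar below 0 is Necap1 (-1.21), which is no lectin gene. The level trend is not removed here, and with it removed Clec4n would stand at -0.04 and Necap1 at -0.72.

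Promoters are shown for Clec4b1 and its near relative Clec4b2, which was below the floor, for the adjacent pair Clec4d and Clec4e, which both read higher, and for Clec2d, the member furthest in the lower direction. Each window runs from 250 bases before the annotated start to 50 bases after it, on the strand of the gene, from RefSeq, GRCm38.p6. The windows are chr6:123049712-123050011 (plus strand) for Clec4b1, chr6:123172773-123173072 (plus) for Clec4b2, chr6:123261857-123262156 (plus) for Clec4d, chr6:123289822-123290121 (minus) for Clec4e and chr6:129180365-129180664 (plus) for Clec2d. Capitals mark matches to motifs searched on both strands, which here are an IRF-type motif in Clec4b1, Clec4d and Clec2d (the second capital run), an NF-kB-type motif in Clec2d (the first capital run) and a C/EBP-type motif in Clec4e. No marked matches overlap.
Clec4b1: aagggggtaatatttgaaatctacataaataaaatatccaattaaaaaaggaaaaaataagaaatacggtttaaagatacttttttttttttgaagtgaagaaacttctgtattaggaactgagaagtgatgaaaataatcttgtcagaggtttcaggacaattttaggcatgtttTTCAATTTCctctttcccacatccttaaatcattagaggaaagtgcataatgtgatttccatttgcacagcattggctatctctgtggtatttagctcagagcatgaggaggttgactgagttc
Clec4b2: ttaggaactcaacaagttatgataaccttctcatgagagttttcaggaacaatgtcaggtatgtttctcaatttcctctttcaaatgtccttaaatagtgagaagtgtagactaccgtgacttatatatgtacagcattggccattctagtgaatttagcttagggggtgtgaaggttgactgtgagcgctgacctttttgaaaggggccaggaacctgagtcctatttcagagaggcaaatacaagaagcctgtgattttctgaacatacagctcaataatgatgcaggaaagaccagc
Clec4d: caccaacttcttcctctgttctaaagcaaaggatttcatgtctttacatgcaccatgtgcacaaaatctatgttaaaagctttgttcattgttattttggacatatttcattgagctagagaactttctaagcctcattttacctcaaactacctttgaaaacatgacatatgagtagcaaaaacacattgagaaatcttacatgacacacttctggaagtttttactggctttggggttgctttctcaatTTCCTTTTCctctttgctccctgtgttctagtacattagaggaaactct
Clec4e: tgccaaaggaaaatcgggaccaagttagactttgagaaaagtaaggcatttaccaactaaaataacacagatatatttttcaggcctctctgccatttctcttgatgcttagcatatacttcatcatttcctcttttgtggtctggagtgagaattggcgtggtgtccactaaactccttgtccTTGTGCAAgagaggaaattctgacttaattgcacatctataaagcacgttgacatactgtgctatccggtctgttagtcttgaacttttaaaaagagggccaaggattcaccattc
Clec2d: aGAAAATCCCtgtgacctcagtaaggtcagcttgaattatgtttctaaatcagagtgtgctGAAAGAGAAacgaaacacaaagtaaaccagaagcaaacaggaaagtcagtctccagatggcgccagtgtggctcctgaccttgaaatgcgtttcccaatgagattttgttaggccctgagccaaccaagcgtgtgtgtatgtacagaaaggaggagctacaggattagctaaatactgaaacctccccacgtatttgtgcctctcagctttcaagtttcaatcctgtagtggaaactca

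The IRF-type motif GAAANNGAA, in either orientation, begins 74 bases before the start of Clec4b1, 189 bases before that of Clec2d and at base 2 of Clec4d. It was held by 6 of the 35 windows of members (32 genes had a window) and by 8.56% of all 32851 windows. Clec4b1 and Clec4d read higher and Clec2d lower in Il34LacZ/LacZ, so these genes, which were picked for display by their readings, did not share a direction. Clec12b, Clec2e and Clec2h, which also held the motif, were below the floor on both arrays. The Clec4b2 window, of the same kind as that of Clec4b1 and identical to it at 77.0% of 183 aligned bases, held none of the motifs marked. The C/EBP-type motif TTGCNNAA, which begins 66 bases before the start of Clec4e, was in 7 member windows and 10.8% of all windows. The AP-1-type motif TGANTCA was in 7 member windows and 7.81% of all, the NF-kB-type motif GGGANTTTC in 2 and 1.11%, the TATAAA motif, not marked in capitals, in 10 and 13.6%, and the PU.1-type motif GAGGAAGT in 0 and 3.20%. A match is a run of letters and not a measured binding site.

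Among the receptors with an activating motif of their own, Clec7a was well above the floor and Clec1b below it. Clec7a encodes Dectin-1, the receptor for fungal beta-glucans, and read 566 in Il34LacZ/LacZ and 492 in Il34+/LacZ. The difference of 0.20 was within the probe set SD, but with the trend removed it was 0.82, above it, and genes of this level typically read lower in Il34LacZ/LacZ. Clec1b encodes CLEC-2, the podoplanin receptor of platelets, and read 15.01 in Il34LacZ/LacZ and 12.7 in Il34+/LacZ.

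Of the 6 DCIR receptors and relatives, several of which carry an inhibitory motif, 4 were at or above the floor and none of these reached 1.5-fold in either direction. Clec4a1 (DCIR4) read 478 in Il34LacZ/LacZ and 652 in Il34+/LacZ, for a difference of -0.43, or 0.18 with the trend removed. Clec4a2, the inhibitory receptor DCIR, read 72.8 in Il34LacZ/LacZ and 97.6 in Il34+/LacZ (-0.36, and -0.37 with the trend removed). Clec4a3 (DCIR3) read 83.8 in Il34LacZ/LacZ and 117 in Il34+/LacZ (-0.41, and -0.30 with the trend removed). All of these differences were within the probe set SD. Clec12a, the inhibitory urate crystal receptor MICL, sat at the floor with 47.8 in Il34LacZ/LacZ and 53.2 in Il34+/LacZ. Clec12b, a relative of Clec12a, and Clec4a4, which encodes DCIR2 of splenic dendritic cells, were below the floor on both arrays.

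Of the 11 endocytic receptors for sugars, 7 were at or above the floor and only Cd209c was 2-fold apart. Cd209c, which belongs to the mouse relatives of the human receptor DC-SIGN, read 85.7 in Il34LacZ/LacZ and 206 in Il34+/LacZ. It was 2.19-fold lower (-1.13), but -0.81 with the trend removed and so no longer 2-fold. It also fell short of 2-fold after quantile normalization (-0.92), with a pseudocount of 64 (-0.85) and with the raised floor (-0.64). Among genes within 0.5 of its mean log2 level 16.03% were at least 2-fold lower, so a reading of this size was common at that level. Its relatives at or above the floor, also on chromosome 8, read lower by less as deposited, and not all of them with the trend removed. Cd209a read 137 in Il34LacZ/LacZ and 167 in Il34+/LacZ (-0.26, and 0.12 with the trend removed). Cd209d read 108 in Il34LacZ/LacZ and 154 in Il34+/LacZ (-0.46, and -0.16 with the trend removed). Cd209e was below the floor in Il34LacZ/LacZ at 35.8 and just above it in Il34+/LacZ at 54.5. These genes are similar in sequence, so probes may not separate them fully, and the same holds for the Clec4a, Clec4b and Clec2 genes. Cd209b, Cd209f and Cd209g were below the floor on both arrays.

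Mgl2 encodes CD301b, a galactose-type lectin that marks a set of dermal dendritic cells, and read 135 in Il34LacZ/LacZ and 228 in Il34+/LacZ. It was 1.61-fold lower (-0.69), but with the trend removed the difference of -0.24 was smaller than the SD between probe sets. Its neighbour and near relative Clec10a (CD301a) was below the floor, with 18.7 in Il34LacZ/LacZ and 26.8 in Il34+/LacZ. Dermal dendritic cell markers lay on both sides. Among 11 that reached the floor 4 passed 2-fold in the lower direction (Flt3, Itgae, Sirpa and Dpp4) and 0 in the higher, against 12.1% and 1.67% of all genes. With the trend removed only 1 was at least 2-fold lower, against 5.43% of all genes. Cadm1 of the same list read 152 in Il34LacZ/LacZ and 82.3 in Il34+/LacZ, 1.71-fold higher, and Batf3 and Zbtb46 were higher by less. The 12 markers summed to 4315 in Il34LacZ/LacZ and 7681 in Il34+/LacZ, and Xcr1 was below the floor on both arrays. The largest values in the sum were those of Cd24a (1384 in Il34LacZ/LacZ and 2248 in Il34+/LacZ) and Sirpa (870 in Il34LacZ/LacZ and 2040 in Il34+/LacZ). Whether the sorted Langerhans cells themselves gave these readings was not tested, and neither was the part of dermal dendritic cells in the Mgl2 reading. Clec4f, the Kupffer cell receptor, lay at the floor on both arrays with 53.3 in Il34LacZ/LacZ and 49.0 in Il34+/LacZ. Clec4g (LSECtin), the single member with 2 probe sets, read 52.3 in Il34LacZ/LacZ and 31.1 in Il34+/LacZ by the brighter one, and 29.6 in Il34LacZ/LacZ and 18.2 in Il34+/LacZ by the other.

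Clec2d was the lowest member relative to Il34+/LacZ. It encodes Clr-b, a widely expressed ligand that holds back natural killer cells through the receptor NKR-P1B. It read 68.6 in Il34LacZ/LacZ and 286 in Il34+/LacZ, both above the floor. The gene was 3.57-fold lower (-1.84, and -1.48 with the trend removed), more than the probe set SD. It ranked 112 among the 12843 genes in the direction of lower values in Il34LacZ/LacZ, and 124 with the trend removed. Of the genes within 0.5 of its mean log2 level 16.8% were at least 2-fold lower. Klrb1b, which encodes that receptor, read 850.3 in Il34LacZ/LacZ and 1138 in Il34+/LacZ (-0.41, and 0.17 with the trend removed).

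Keratinocyte genes also read lower in Il34LacZ/LacZ. Among 9 that reached the floor 6 passed 2-fold in the lower direction and 0 in the higher, against 12.1% and 1.67% of all genes. Krt14 of basal keratinocytes read 58.6 in Il34LacZ/LacZ and 787 in Il34+/LacZ, and the 10 measured keratinocyte genes summed to 716 in Il34LacZ/LacZ and 4124 in Il34+/LacZ. Lor was below the floor on both arrays. Their part in the Clec2d reading was not tested. The other Clr genes stayed near the floor. Clec2l, which encodes a neuronal member of the family, read 75.3 in Il34LacZ/LacZ and 51.1 in Il34+/LacZ (0.44, and 0.21 with the trend removed). Clec2i (Clr-g) read 50.7 in Il34LacZ/LacZ and 37.9 in Il34+/LacZ. Clec2e, Clec2g, Clec2h, Clec2m and the pseudogene Clec2j were below the floor on both arrays.

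Members known from endothelium, matrix or other compartments gave no reading 2-fold apart. Clec11a, a secreted bone and blood growth factor, had the same value of 98.6 in Il34LacZ/LacZ and in Il34+/LacZ. Equal values to the last digit occurred for 448 of the 34760 probe sets, among them Clec2g at 20.3 on both arrays, and what produced them is not given in the sources used here. Clec16a, an endosomal protein without lectin activity despite its name, read 97.5 in Il34LacZ/LacZ and 126 in Il34+/LacZ (-0.32, and -0.13 with the trend removed). Clec3b, which encodes the plasma protein tetranectin, read 64.0003 in Il34LacZ/LacZ and 46.4 in Il34+/LacZ, at least 1.24-fold higher (0.31, and 0.02 with the trend removed). Clec3a of cartilage read 49.6 in Il34LacZ/LacZ and 29.5 in Il34+/LacZ. Clec1a and Clec14a, both of endothelial cells, were below the floor on both arrays. The 15 members below the floor on both arrays ranged from 10.1 to 38.7 in Il34LacZ/LacZ and from 7.21 to 37.5 in Il34+/LacZ, and no fold is given for them.

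Signalling genes downstream of the receptors had a median difference of -0.56, and all 27 measured reached the floor. None of them passed 2-fold in the higher direction and 4 did in the lower, against the 12.1% of all genes. The adaptor Card9 read 244 in Il34LacZ/LacZ and 589.7 in Il34+/LacZ, 2.33-fold lower. The exchange factor Vav1 was 2.32-fold lower, the phospholipase Plcg2 2.30-fold lower and the transcription factor Nfatc2 2.06-fold lower. In the other direction the adaptor Blnk read 68.5 in Il34LacZ/LacZ and lay below the floor at 17.8 in Il34+/LacZ. It was at least 1.31-fold higher (0.39, and 0.06 with the trend removed). The transcription factor Egr3 read 400 in Il34LacZ/LacZ and 314 in Il34+/LacZ (0.33, and 0.94 with the trend removed), while Vav3 (0.05) and the kinase Src (0.03) read nearly alike. With the trend removed 0 of the 27 were 2-fold apart, against 3.96% of all genes higher and 5.43% lower, and the list's median was -0.07. Syk, the kinase at the head of the pathway, read 121 in Il34LacZ/LacZ and 186 in Il34+/LacZ (-0.56, and -0.18 with the trend removed). The phosphatase Ptpn6, which inhibitory receptors recruit, read 553 in Il34LacZ/LacZ and 893 in Il34+/LacZ (-0.68, and -0.07 with the trend removed).

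Of 14 measured cytokine and inflammatory genes that these receptors can induce, 11 were at or above the floor, with readings on both sides of 0. At 1.5-fold 3 were higher and 1 lower, against 9.36% and 28.2% of all genes. The higher ones were the chemokine genes Cxcl1 (499 in Il34LacZ/LacZ and 250.5 in Il34+/LacZ, 1.93-fold) and Ccl4 (2631 in Il34LacZ/LacZ and 1424 in Il34+/LacZ, 1.84-fold) and the interleukin gene Il2 (88.6 in Il34LacZ/LacZ and 49.3 in Il34+/LacZ, 1.60-fold). None of the 11 reached 2-fold in the higher direction and 1 did in the lower, against 1.67% and 12.1% of all genes. This was Nlrp3 of the inflammasome, with 479 in Il34LacZ/LacZ and 1009.6 in Il34+/LacZ. With the trend removed Nlrp3 was no longer 2-fold apart (-0.44), and Cxcl1 and Ccl4 were at least 2-fold higher (1.56 and 1.38), against 3.96% of all genes. Tnf read 2897 in Il34LacZ/LacZ and 2905 in Il34+/LacZ, and Il1b 1795 in Il34LacZ/LacZ and 1774 in Il34+/LacZ. The list's median was 0.10, or 0.48 with the trend removed.

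Lectin-domain genes outside the naming rule gave 1 gene 2-fold apart among 19 at or above the floor (34 measured). That gene was lower, and of all genes 12.1% passed 2-fold in the lower direction and 1.67% in the higher. Cd72, an inhibitory receptor known from B cells, read 1033 in Il34LacZ/LacZ and 2211 in Il34+/LacZ, 2.12-fold lower, and -0.56 with the trend removed. Cd207 was 1.70-fold lower (-0.76, and -0.29 with the trend removed), and Ly75, the endocytic receptor DEC-205, 1.59-fold lower (-0.67, and -0.06 with the trend removed). Mrc1, the macrophage mannose receptor, read 68.7 in Il34LacZ/LacZ and 66.6 in Il34+/LacZ. In the other direction Mrc2 read 109 in Il34LacZ/LacZ and lay below the floor at 41.6 in Il34+/LacZ, at least 1.93-fold higher (0.78 with the trend removed). At 1.5-fold 2 genes of the list were higher and 4 lower, against 9.36% and 28.2% of all genes. With the trend removed Klrc1, a natural killer cell receptor gene, was at least 2-fold higher (1.14), at 307 in Il34LacZ/LacZ and 200 in Il34+/LacZ. Of all genes 3.96% were at least 2-fold higher with the trend removed.

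**Figure D5:**
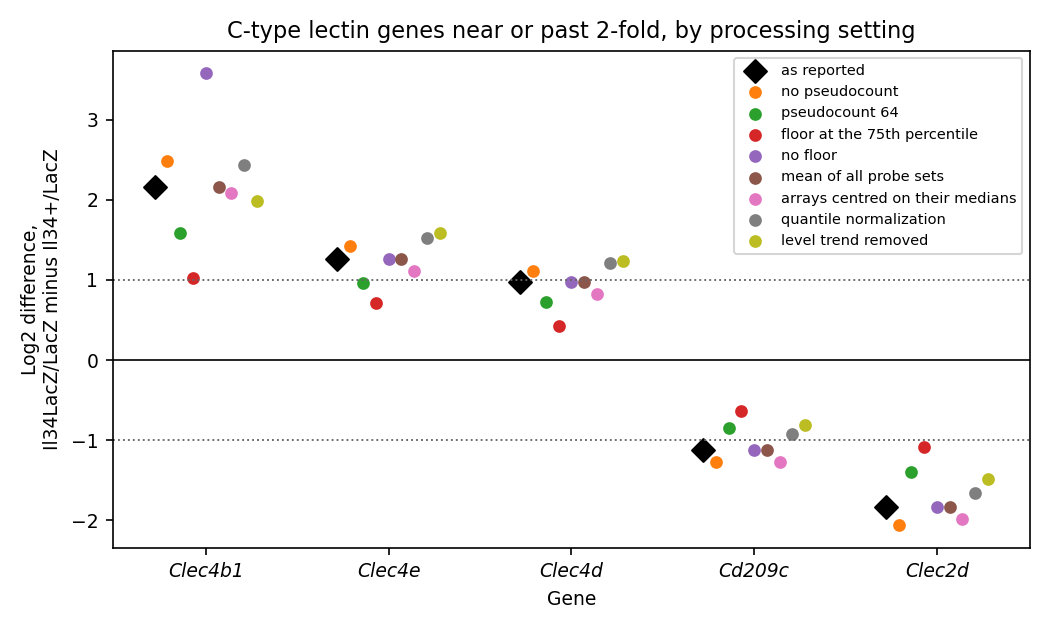
Log2 difference (Il34LacZ/LacZ minus Il34+/LacZ) of the 4 members past 2-fold and of Clec4d, as reported (black diamonds) and under 8 other processing settings (coloured points), with 2-fold as dotted lines. Each gene stays on its side of 0, Clec4b1 runs from 1.02 to 3.58 and Clec2d from -2.06 to -1.08, and the other 3 genes cross the 2-fold line. Only centring, quantile normalization and removal of the trend could have moved a gene across 0.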

How the data were processed

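Gene expression was measured on 2 one-colour arrays of mouse genes, 1 per genotype. Each probe set has 1 intensity per array that the authors deposited after processing, linear as judged from the values (2.32 to 13768 in Il34LacZ/LacZ, 2.20 to 13748 in Il34+/LacZ). How background, summarisation and scaling were handled is not given in the sources used here. Per the labels' protocols, 2 ng of total RNA was amplified and biotin-labelled. GEO's annotation gave 21640 of 34760 probe sets 1 symbol, 1321 several and 11799 none, and all 39 members matched a RefSeq gene number. A gene was represented by its probe set with the highest mean, and 38 members had 1 probe set. Values were taken as log2(intensity + 16). The trend with level was a lowess fit (fraction 0.3) to probe sets with 1 symbol. It was read at the mean of the unlimited values, also for genes whose fold was limited at the floor. With 1 array per genotype no test was made and the number of arrays limits the precision. All members were named in role groups, with values for those at or above the floor. From the other lists, genes at least 2-fold apart (up to 4 per list) and genes that bear on a member were named, the second kind partly after values were seen. The members and lists were chosen with earlier results of these data known. The IRF-type and NF-kB-type motifs were shortened to the letters given after a first search with longer forms had been seen. Scripts were tested on simulated data. Alternatives changed pseudocount, floor, probe set rule, scaling and threshold. Python 3.11.15, numpy 2.4.6, pandas 2.3.3, statsmodels 0.14.6 and matplotlib 3.10.9 were used, and promoter windows were aligned with Biopython 1.88.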

Additional observations from a re-analysis of the deposited data

How the results depend on the processing

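The directions of Clec4b1, Clec4e, Clec4d, Clec2d and Cd209c were kept in all 8 alternative settings computed per gene, and Clec4b1 and Clec2d stayed past 2-fold in all 8. A change of pseudocount or floor cannot reverse a direction, and each of these genes has 1 probe set, so the probe set rule left them unchanged. Only centring, quantile normalization and removal of the trend could have reversed a direction. The count of members at least 2-fold higher was 2 as reported, 1 with a pseudocount of 64 and 1 with the floor at the 75th percentile, where Clec4e was lost, and 3 with no pseudocount, after quantile normalization and with the level trend removed, where Clec4d was added. The count at least 2-fold lower was 2 as reported and 1 with a pseudocount of 64, 1 with the raised floor, 1 after quantile normalization and 1 with the trend removed, where Cd209c was lost, and 4 at a 1.5-fold threshold, which added Clec4n and Mgl2. The median of the members at or above the floor ran from -0.43 (raised floor) to 0.08 (no floor, all 39 members). Over all genes the counts past 2-fold were 215 higher and 1551 lower as reported. These counts were 403 and 1942 with no pseudocount, 64 and 829 with a pseudocount of 64, 60 and 941 with the raised floor, 338 and 1706 with no floor, 124 and 2149 with arrays centred on their medians, 515 and 674 after quantile normalization, 509 and 698 with the trend removed, and 1202 and 3622 at 1.5-fold. Higher genes made up 12.2% of those 2-fold apart as reported, 43.3% after quantile normalization and 42.2% with the trend removed. The median difference of all genes at or above the floor was -0.16 as reported, -0.33 with centred arrays, 0.03 after quantile normalization and 0.03 with the trend removed. A raised floor limits folds by its own construction; the cause of the other shifts was not tested. No paired analysis was possible because each genotype has 1 array. Members near the floor cannot be told from background, since detection calls were not used here.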

Other observations

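The genes beside the lectin clusters, chosen by their position, add readings on both sides of 0. C3ar1, the receptor of the complement peptide C3a, lies upstream of the Clec4 run and read 131 in Il34LacZ/LacZ and 119 in Il34+/LacZ (0.12, and 0.40 with the level trend removed). Necap1, an adaptor-associated gene of clathrin-mediated uptake between C3ar1 and Clec4a1, read 126 in Il34LacZ/LacZ and 311 in Il34+/LacZ, or -1.21 on the log2 scale and -0.72 with the trend removed. Olr1, the scavenger receptor LOX-1 next to Clec7a, read 98.5 in Il34LacZ/LacZ and lay below the floor at 45.0 in Il34+/LacZ. It was at least 1.77-fold higher (0.82, and 0.64 with the trend removed). Cd69, an activation marker of leukocytes between Clec2d and Clec2m, read 574 in Il34LacZ/LacZ and 827 in Il34+/LacZ (-0.51, and 0.09 with the trend removed).

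Markers of the remaining cell types were mostly near the floor. Of 7 endothelial markers 4 were at or above it, and 0 of these were 2-fold apart, with sums of 401 in Il34LacZ/LacZ and 333 in Il34+/LacZ. Of 6 fibroblast markers 3 were at or above it, and 0 of these were 2-fold apart, with sums of 395 in Il34LacZ/LacZ and 247 in Il34+/LacZ. The 6 measured platelet markers summed to 1288 in Il34LacZ/LacZ and 392 in Il34+/LacZ, of which Pf4 alone gave 975 in Il34LacZ/LacZ and 148 in Il34+/LacZ, and the other 5 lay within 2-fold. Natural killer cell markers summed to 1424 in Il34LacZ/LacZ and 1641 in Il34+/LacZ, mostly from Klrd1. Klrd1 read 1136 in Il34LacZ/LacZ and 1386 in Il34+/LacZ (-0.28, and 0.27 with the trend removed), while Ncr1, Klrb1c, Gzma and Eomes were below the floor on both arrays. B cell markers summed to 179.6 in Il34LacZ/LacZ and 145 in Il34+/LacZ. Of 5 plasmacytoid dendritic cell markers 4 were at or above the floor, and 1 of these was at least 2-fold lower. This was Ly6d, which keratinocytes also express, at 64.2 in Il34LacZ/LacZ and 765 in Il34+/LacZ. Bst2, an interferon-induced surface protein gene, read 367 in Il34LacZ/LacZ and 236 in Il34+/LacZ and passed 2-fold higher with the trend removed (1.196). Of 6 mast cell markers 2 were at or above the floor, and 1 of these was at least 2-fold lower. This was the growth factor receptor gene Kit, at 196 in Il34LacZ/LacZ and 547 in Il34+/LacZ, and it was no longer 2-fold apart with the trend removed (-0.81). Gata2 of the same list went the other way, with 88.0 in Il34LacZ/LacZ and 64.4 in Il34+/LacZ (0.37, and 0.27 with the trend removed). Cpa3, Mcpt4, Tpsb2 and Fcer1a were below the floor on both arrays.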
